A study of Mus musculus with 4 samples.

Results

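The miR-378 family was represented by 4 miRNA names, mmu-miR-378a-3p, mmu-miR-378b, mmu-miR-378c and mmu-miR-378d, of 659 names listed over 2 chimeric eCLIP libraries of mouse plantaris muscle. The family peaks were selected by name from the deposited peak lists, as every peak that listed at least 1 of the 4 names, and the reads of the 4 names were summed at each peak. There were 2845 such peaks among 20754 in the control library and 3494 among 21872 in the mimic library. The family was proposed with its read totals and the ratio between the libraries known, so the totals, the ratio and the ranks given here describe these libraries and carry no test. The target gene of a peak was the RefSeq gene of GRCm38 (mm10) whose span it overlapped on the same strand.

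Chimeric eCLIP pulls down Argonaute-2 (Ago2), joins a miRNA to the RNA fragment held in the same Ago2 complex, and sequences both as 1 chimeric read. The study's methods also describe a miRNA-specific form, in which a primer for mouse miR-1 served to amplify the cDNA. Whether the libraries used here went through that step was not stated. Its part in the shares of peaks and reads given here was not tested. Both libraries came from plantaris muscle of male C57BL/6J mice aged 5 months after 10 days of mechanical overload (MOV), in which part of the gastrocnemius and soleus is removed in both legs and the plantaris takes over their load. MOV_Control is muscle injected with control lentivirus (left leg in the study) and MOV_Mimic is muscle injected with lentivirus that carries a miR-1 mimic (right leg), both under a CMV promoter, which is not specific to muscle fibres, and with TurboGFP as reporter. Each group had 1 library and therefore no replicate error, so no test was run, and whether both muscles came from 1 mouse was not stated. No library without overload and no input library was analysed here, so the levels of the target RNAs themselves are unknown, and fewer molecules of an RNA and less binding per molecule cannot be told apart, nor can fewer cells of a type and less RNA per cell. Where values are paired without further words, the control comes first and the mimic after it, and coordinates of a place found in both are those of the control. All intervals below are 95% intervals and cover counting error only.

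MiR-378a is made from an intron of Ppargc1b, the gene of the transcriptional coactivator PGC-1beta, and both of its arms are known as regulators of oxidative metabolism. In muscle, targets reported for the miR-378 family include Crat, which makes a carnitine acyltransferase, Med13, a Mediator subunit, Msc, which makes the myogenic repressor MyoR, and Igf1r, the receptor of IGF-1. A miRNA binds mainly through its seed, the bases near its 5′ end that pair with a complementary stretch of the target.

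The mature sequences of 3 of the 4 names were found in the RefSeq table for GRCm38.p6 and are shown because their seeds set which target sites each name can pair with. Capitals mark the seed, bases 2 to 8 counted from the 5′ end. MiR-378b lies on the plus strand at chr11:88352839-88352858, miR-378c on the minus strand at chr14:46954905-46954925, and miR-378d on the minus strand at chr10:126710355-126710376.
mmu-miR-378b: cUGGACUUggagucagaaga
mmu-miR-378c: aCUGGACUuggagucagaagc
mmu-miR-378d: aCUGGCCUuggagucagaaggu
The 3 sequences had 3 different seeds. MiR-378b and miR-378c shared a run of 19 bases, but miR-378b starts 1 base later, so its seed is shifted by 1 base. The longest unbroken run that miR-378d shared with either was 14 bases. Its seed differed from that of miR-378c by 1 base, which lies within the part that miR-378b and miR-378c have in common. A 7-base seed match is AAGTCCA for miR-378b, AGTCCAG for miR-378c and AGGCCAG for miR-378d, and the 8 bases AAGTCCAG hold both of the first 2.

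The family was listed at 13.7% of all peaks in the control (13.2 to 14.2%, exact Clopper-Pearson) and at 16.0% in the mimic (15.5 to 16.5%). It held 6469 of 232408 chimeric reads in the control (2.78%) and 8456 of 259207 in the mimic (3.26%). The files give fractional reads, which were treated as estimated counts, and how the fractions arose was not stated. The ratio of family reads, mimic over control, was 1.31 (1.27 to 1.35, exact conditional binomial interval), beside 1.11 (1.104 to 1.116) for all other miRNAs together. After division by the library totals the family ratio was 1.17 (1.13 to 1.21). For comparison, miR-1a-3p with miR-206-3p had a ratio of 1.18, miR-133a-3p with miR-133b-3p 1.19, and miR-26a-5p with miR-26b-5p 1.14. Within these sums the names differed. On its own miR-1a-3p had a ratio of 1.31, like the family, and miR-206-3p 0.947, while miR-133a-3p had 1.22 and miR-133b-3p 1.06. Among the 148 single miRNAs that had 50 peaks or more in both libraries, 18 had a ratio above that of the family, and the median was 1.06. The opposite arm of the main hairpin, miR-378a-5p, had 213 reads and 250.1, a ratio of 1.17 (0.974 to 1.42) whose interval held 1.

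MiR-378a-3p carried most of the family in both libraries. It had 4964 reads at 2368 peaks and 6483 reads at 2912 peaks, a ratio of 1.31 (1.26 to 1.36). MiR-378b had 1253 reads at 1001 peaks and 1287 reads at 1040 peaks, a ratio of 1.03 (0.9495 to 1.111). MiR-378c had 250.0 reads at 248 peaks and 684 reads at 681 peaks. Its ratio of 2.74 (2.36 to 3.18) was the only one of 2-fold or more among the 148 miRNAs, which makes 0.676% of them, and the family was proposed with this contrast known. MiR-378d was close to absent, with 2.26 reads at 8 peaks and 1.1998 reads at 5 peaks, and was never listed without miR-378a-3p. The plot of reads and peaks by name shows that the difference between the libraries lay in miR-378a-3p and miR-378c.

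**Figure D1:**
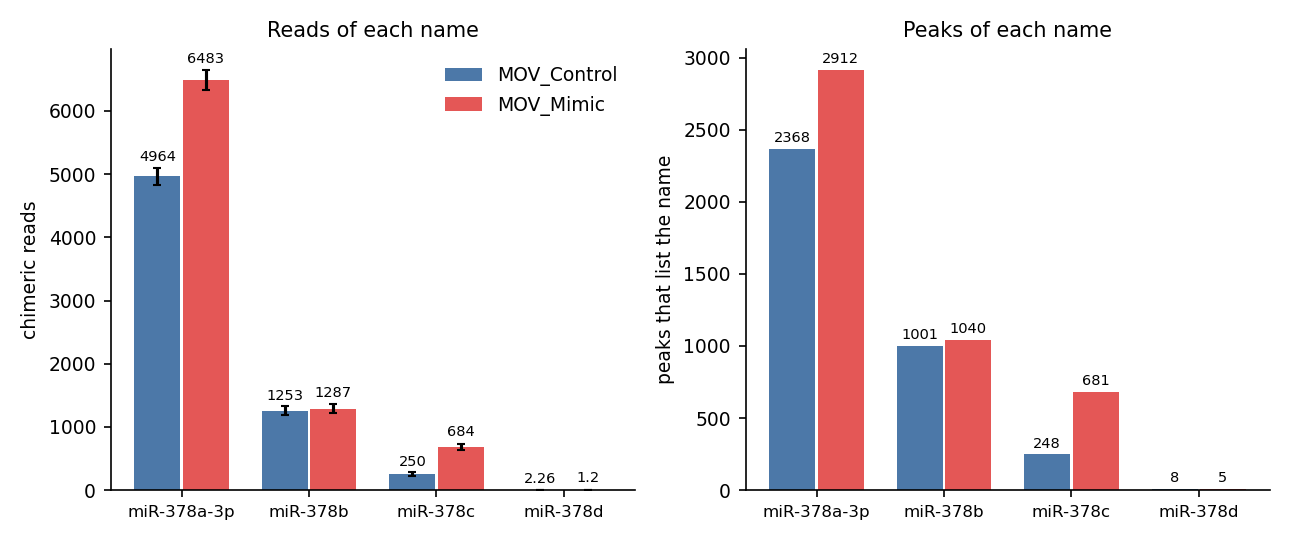
Chimeric reads (left, with exact Poisson intervals as bars) and peaks (right) of the 4 miR-378 names in MOV_Control and MOV_Mimic, 1 library each. MiR-378a-3p and miR-378c are higher in the mimic, with 6483 against 4964 and 684 against 250.0 reads, while miR-378b is nearly level and miR-378d is near 0.

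The names often stood at the same place. More than 1 family name was listed at 97.5% of the 80 control peaks and 95.5% of the 110 mimic peaks with 10 or more summed reads, against 8.06% and 9.78% of the peaks with under 1 read. Of the miR-378b peaks, 56.4% and 63.3% also listed miR-378a-3p, and of the miR-378c peaks 77.4% and 66.7% did. The share of miR-378a-3p in the family reads was 76.7% in both libraries. The share of miR-378b was 19.4% (18.4 to 20.4%) and 15.2% (14.5 to 16.0%), and that of miR-378c was 3.86% (3.41 to 4.36%) and 8.09% (7.52 to 8.69%). MiR-378c thus held more of the family in the mimic and miR-378b less, and this was spread over the targets. At the 62 places with at least 10 family reads in both libraries, the share of miR-378c was higher in the mimic at 39, lower at 17 and equal at 6, while that of miR-378b was higher at 19 and lower at 43. How reads were given to names that share most of their bases was not stated, and its part in this shift was not tested. The summed family reads do not depend on that division.

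Most family peaks rested on little. In the control 58.4% of them had under 1 summed read and in the mimic 57.6%, with 11.5% and 10.5% of the family reads. The 80 control peaks and 110 mimic peaks with 10 or more reads held 49.0% and 51.1% of the reads, and the 10 strongest peaks alone held 23.8% and 22.6%. The strength of a peak went with its presence in the other library. Of the control peaks, 42.4% (40.6 to 44.3%) overlapped a family peak of the mimic by at least 1 nucleotide on the same strand. By reads in the control the share was 31.0% under 1 read, 47.2% from 1 to under 3, 87.0% from 3 to under 10 and 97.5% at 10 or more. Peaks of all other miRNAs, each name on its own, overlapped at 23.0%, 38.7%, 80.2% and 97.0% in the same classes, while miR-26a-5p with miR-26b-5p, summed like the family, overlapped at 28.1%, 43.3%, 79.3% and 98.2%. Counted from the mimic, 34.5% (32.9 to 36.1%) of family peaks overlapped one of the control.

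**Figure D2:**
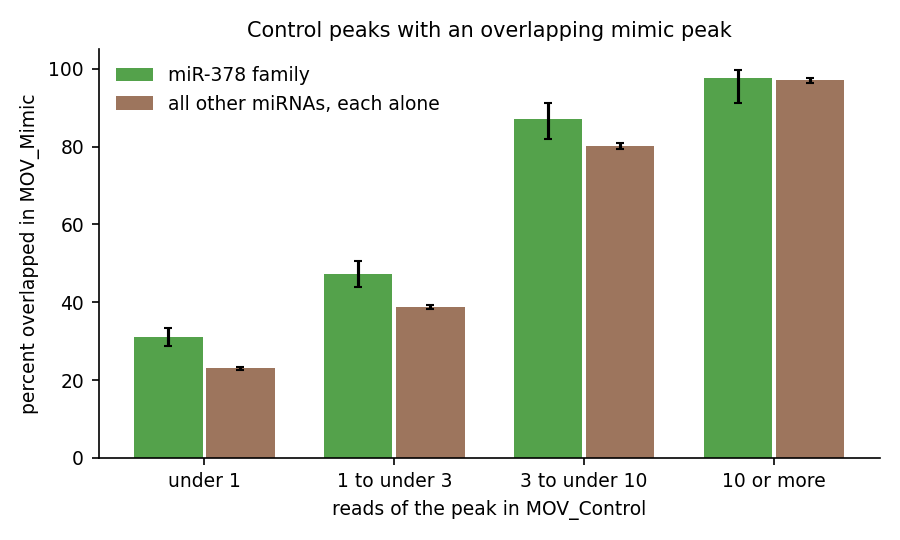
Percent of MOV_Control peaks overlapped by a MOV_Mimic peak of the same family or name, by the reads of the control peak, with exact Clopper-Pearson intervals. The family rises from 31.0% under 1 read to 97.5% at 10 reads or more, beside 23.0% and 97.0% for all other miRNAs.

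Only 6 family peaks with 10 or more reads had no overlapping family peak in the other library. In the control these were a peak in Acta1, the skeletal alpha-actin gene, with 43.0 family reads of 90.6, and one in Mrln, which encodes the calcium pump inhibitor myoregulin, with 10.8 of 12.4. In the mimic they were a neighbouring pair in Myh1, the gene of fast IIx myosin, with 23.4 and 10.4 family reads, one in Ldb3, which makes a Z-disc protein, with 11.2 of 12.0, and one in Mlec, which makes malectin, with 10.2 of 13.7. No peak of any miRNA was listed in the other library at these 6 places. The gene totals were closer than the single peaks at Acta1, with 83.8 family reads and 76.2.

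Family peaks lay in 1561 genes and 1760, which is 23.5% of the 6632 and 25.4% of the 6916 genes with a peak of any miRNA. The libraries shared 851 of these genes, 54.5% of the control and 48.4% of the mimic genes. With at least 1 peak of 3 or more family reads there were 198 and 250 genes, of which the libraries shared 130. Peaks with no gene made up 0.773% and 0.887% of the family peaks. Gene spans were used, since exons of GRCm38 were not among the tables used here, so no peak was assigned to an exon, an intron or a UTR.

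Several of the strongest places lay in noncoding RNAs. Rn18s-rs5, annotated in the ribosomal RNA repeat of chromosome 17, held 900.1 family reads and 979, 13.9% and 11.6% of the family. Its strongest place was chr17:39846891-39846936 in the control, with 283 reads (251 to 318), and chr17:39846866-39846936 in the mimic, with 375 (338 to 415). The adjoining control peak, chr17:39846850-39846890, held another 139 family reads (117 to 164), and the mimic place reached into it. The reads of these strongest places thus do not cover the same stretch and do not show a rise. The study's methods describe a filter on repetitive elements, and what part of such reads it left was not tested. The family made up only 5.78% and 5.89% of the reads of all miRNAs at Rn18s-rs5, where 221 and 205 miRNA names were listed at that strongest place. The family stood out far more at Rn7sk, the 7SK small nuclear RNA, which is known to hold the elongation factor P-TEFb inactive. There it had 195 of 255 reads and 369 of 454, or 76.6% (70.8 to 81.5%) and 81.2% (77.4 to 84.8%) of all miRNA reads at the gene. These reads came from 2 adjoining places within the gene span chr9:78175302-78175633. The first, chr9:78175304-78175371, had 157 and 273 family reads, and the second, chr9:78175372-78175409, had 37.8 and 95.4. Both were higher in the mimic, with ratios of 1.74 (1.42 to 2.13) and 2.52 (1.70 to 3.74). Over the gene the ratio was 1.89 (1.59 to 2.26) for family reads and 1.78 for all miRNAs. The latter includes the family, which held most of these reads, so it does not show how other miRNAs differed. The tables used here gave no strand for Rn7sk, Rn18s-rs5 and Mylf-ps, so their peaks were assigned by position alone.

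Among protein-coding genes, Hspb6, which encodes a small heat shock protein abundant in muscle, had the most family reads at 1 place. The place chr7:30554625-30554778 held 247 family reads (217 to 280) of 317 reads in the control, and the matching place chr7:30554634-30554840 held 345 (310 to 383) of 517 in the mimic. It ended 665 nt before the end of the RefSeq gene. Over the gene the family made up 53.6% (49.0 to 58.2%) of all miRNA reads and 54.9% (51.0 to 58.8%). The ratio of mimic over control at Hspb6 was 1.41 (1.19 to 1.66) for family reads and 1.38 for all miRNAs, the family included. The intervals of the family share at Hspb6 thus overlapped between the libraries.

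Aldoa, the gene of the glycolytic enzyme aldolase A, held 119 family reads of 173 at chr7:126797363-126797455 in the control and 116 of 191 at the matching mimic place. Mylf-ps, annotated as a pseudogene, held 101 and 98.6 at one place, 78.4% and 72.6% of its reads, and Mylpf, which makes the fast regulatory myosin light chain that this pseudogene is named after, held 79.99 and 93.7 at chr7:127212900-127212951. Reads of near-identical copies such as this pair may be split between them, so the 2 values are uncertain on their own. Cdk8, which encodes a kinase of the Mediator complex, held 77.6 reads and 134 at chr5:146261093-146261147, some 41727 nt before the end of the gene. Car3, the gene of muscle carbonic anhydrase, held 99.3 and 55.8 at chr3:14871778-14871877, a ratio of 0.562 (0.400 to 0.793), and all miRNAs together had 283 and 168 reads there. Per 100 nt of peak, the strongest places of Hspb6, Aldoa and Rn7sk held 160, 128 and 232 family reads in the control, against 615 for Rn18s-rs5.

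A read count grows with the abundance and length of an RNA, so genes were compared by the share of the family among their miRNA reads. Of 836 genes with at least 30 reads in each library, 142 had no family peak in either, and the median share was 1.04% and 1.57%. The share reached 10% in both libraries at 25 genes, 20% at 9 and 30% at 5. These 5 were Rn7sk, Hspb6, Mylf-ps, Cdk8 and Ywhaz, a 14-3-3 adaptor protein gene with 35.8% and 46.3%. Mfn2, which encodes mitofusin 2 of the outer mitochondrial membrane, had 21.4 family reads of 47.5 in the control (45.1%, 29.5 to 58.8%) and 14.0 of 54.8 in the mimic (25.5%, 14.7 to 39.0%). Txlnb, a taxilin gene expressed in muscle, had 43.8% (28.6 to 61.7%) and 20.5% (9.83 to 38.2%), and Shisa5 had 13.5 of 25.5 reads and 14.1 of 35.7. The intervals of Mfn2 and Txlnb overlapped between the libraries. The plot of family shares by gene shows which shares are well measured and which rest on few reads.

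**Figure D3:**
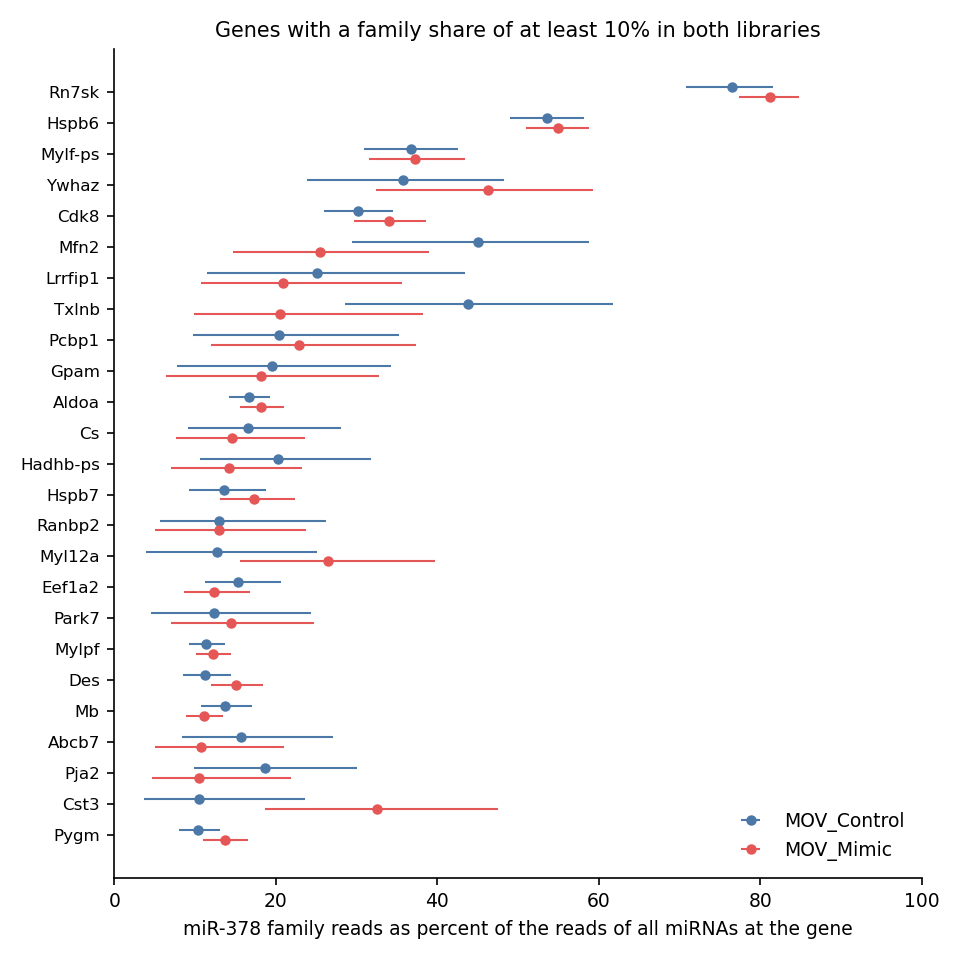
Share of miR-378 family reads among the reads of all miRNAs at the 25 genes with at least 30 reads and a share of at least 10% in both libraries, with exact Clopper-Pearson intervals. Rn7sk lies at 76.6% and 81.2%, apart from the other genes, and Hspb6 is next at 53.6% and 54.9%. The Hspb6 interval overlaps those of Mfn2 and Txlnb in the control and that of Ywhaz in the mimic. Intervals are wide where the gene has few reads, such as Txlnb and Cst3.

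In a search added after seeing the data, seed matches were looked for in the transcripts of these genes by name, in the longest protein-coding transcript of the GENCODE M1 annotation, because the reference genome used here was of another build than the peaks. A match therefore says that the letters are in the transcript, not that they lie under the peak. The seeds searched were those of miR-378b and miR-378c. The mature sequence of miR-378a-3p, which held most of the family reads, was not at hand. Whether its seed equals one of those searched was therefore not checked here. A match to the seed of miR-378b or miR-378c was in 41.8% of the 6856 transcripts of genes with any peak. It was in 46.1% (44.0 to 48.2%) of 2169 with a family peak, in 39.9% (38.4 to 41.3%) of 4687 without one, and in 51.8% (42.1 to 61.3%) of 112 with a peak of 3 or more family reads in both libraries. Matches per 1000 nt of transcript were 0.210 with a family peak, 0.181 without, and 0.238 at those 112 genes. The gap is small beside the share of transcripts that hold a match without any family peak.

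A transcript was found for 20 genes of the strongest shared places (25 or more family reads in either library), and 10 of them (50%) held a match. That is near the 46.9% of 770 transcripts of genes with at least 30 reads in both libraries. Crat and Med13, where no family peak was listed, held 3 and 4 matches. Target sequence is shown for 5 genes of strong or high-share places, picked from those that hold a match. Each is 22 nt, 5′ to 3′, with the seed match in capitals, to set beside the seeds above. The positions given are those of the seed match.
Eef1a2, 3′ UTR, transcript nt 1940 to 1947: gatgctcgccatcaAAGTCCAG
Mfn2, coding sequence, nt 2337 to 2344: taactgcagccaccAAGTCCAG
Aldoa, coding sequence, nt 566 to 572: ttcccccaagttatcAAGTCCA
Hspb7, 3′ UTR, nt 1700 to 1706: ctctccatccaacgcAGTCCAG
Myh4, coding sequence, nt 1774 to 1780: gagcagcatcttggaAAGTCCA
Eef1a2, which encodes the muscle form of the elongation factor eEF1A, and Mfn2 held the 8-base match to both seeds, as did Myh4 at another site, nt 907 to 914. The 22 nt shown for Myh4, the gene of fast IIb myosin, were also in Myh1, with the seed match at nt 1830 to 1836 of its transcript. Reads of such paralogs may be split. Hspb6 held no 7-base match to the seed of miR-378b or miR-378c, while miR-378a-3p had 222 of the 247 family reads at its place in the control. Its longest stretch complementary to miR-378c was 10 nt long, from nt 618 of the transcript, and paired with the miRNA from base 9 on, outside the seed. A stretch of at least 10 nt was in 6.84% of the transcripts of all genes with a peak. Cdk8, Mylpf, Car3 and Ywhaz held no 7-base match to these seeds in the transcript searched either.

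At the places listed in both libraries, family reads were on the whole higher in the mimic. There were 1128 such places, with a median log2 ratio of mimic over control of 0.31 (0.20 to 0.40), beside 0.04 (0.03 to 0.05) for 29817 shared peaks of all other miRNAs, each name on its own. With at least 3 family reads in both libraries there were 195 places with a median of 0.27 (0.17 to 0.39), beside 0.11 for the others. Of these 195, 31 were at least 2-fold higher in the mimic, or 15.9%, against 10.2% of all 6308 shared single-miRNA peaks above the same limit, and this contrast too was known when the family was proposed. In the other direction 8 were at least 2-fold lower, or 4.10%, against 5.58%. With at least 10 reads in both, 44 of 62 places were higher in the mimic, or 71.0%, beside 63.3% of 1872 peaks of the others. The family share of all miRNA reads was higher in the mimic at 36 of the 62, and at most of them the interval of the read ratio held 1. The median log2 ratio was 0.15 after division by the library totals.

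The 5 largest rises were in the sarcomere genes Myh1 and Ttn, in Atp2a1 and in mitochondrial ND5. In Myh1, the place chr11:67202529-67202561 had 11.8 family reads and 60.6, a ratio of 5.12 (2.71 to 10.4), and chr11:67210949-67210991 had 9.29 and 39.2, a ratio of 4.22 (2.06 to 10.2). All miRNAs together had 102 and 251 reads at the first place and 157 and 386 at the next. In Ttn, the gene of the giant sarcomere protein titin, chr2:76791656-76791749 had 3.02 and 17.0 family reads. Atp2a1, which encodes the fast calcium pump SERCA1, had 3.92 and 17.3 at chr7:126462841-126462879, and ND5, a complex I subunit gene, had 4.004 and 15.2. The reads of all miRNAs were at least 2-fold higher in the mimic at each of these 5 places. The matching mimic place was wider than the control place at each of the 5, such as chr2:76791566-76791747 in Ttn and chr7:126462823-126462898 in Atp2a1. The ratios thus do not compare equal stretches, and the part of the width in them was not tested. At Myh1 as a whole the family had 134 reads and 339, a ratio of 2.54 (2.07 to 3.11), where all miRNAs had 1.78.

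The 5 largest falls had ratios from 0.376 to 0.455. Eef1a2 had 34.1 family reads and 13.0 at chr2:181149826-181149899, a ratio of 0.382 (0.185 to 0.743), although its gene totals were 37.6 and 34.2. Ywhaz had 12.7 and 4.78 at chr15:36771157-36771221, with gene totals of 23.2 and 26.4. Popdc3, a gene of the Popeye cAMP-binding family, had 10.9 and 4.51, mitochondrial CYTB 15.9 and 7.07, and Pja2, a ubiquitin ligase gene, 10.9 and 4.97. All miRNAs together, the family included, had 43.4 and 20.6 reads at the Eef1a2 place and 14.8 and 8.66 at Ywhaz. They had 120 and 67.99 at CYTB and 15.2 and 6.68 at Pja2. These totals were lower in the mimic, while Popdc3 had 12.8 and 16.2. Family reads made up 78.7% and 63.3% of the total at Eef1a2, 86.0% and 55.3% at Ywhaz and 72.0% and 74.5% at Pja2. At CYTB they made up 13.2% and 10.4%. Where the family held most of the reads, a lower total does not show that other miRNAs were lower too. Except at Eef1a2, the intervals of the family ratios held 1. At Eef1a2 and Ywhaz the gene totals were thus closer than the values at these single places.

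**Figure D4:**
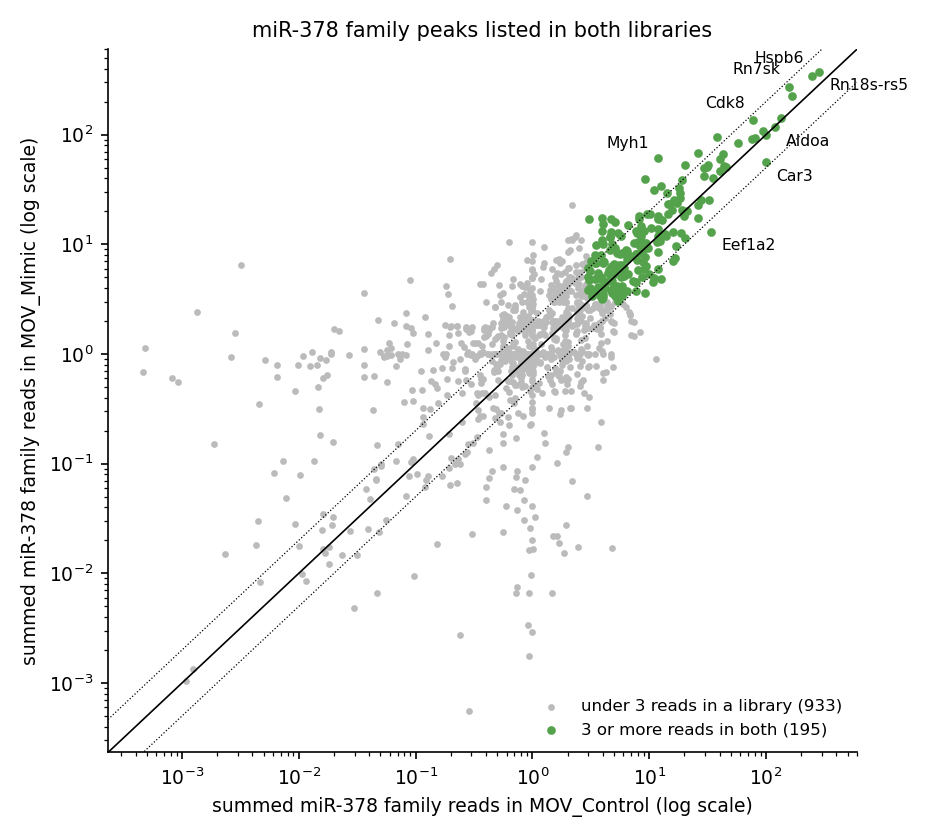
Summed miR-378 family reads of the 1128 places listed in both libraries, MOV_Control against MOV_Mimic, both axes logarithmic, with the line of equal reads (solid) and of 2-fold differences (dotted). The 195 places with 3 or more reads in both (green) follow the solid line with more points above it than below, and the grey places under 3 reads scatter widely.

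The summed share of family reads was high over glycolysis and glycogen genes, with Aldoa holding the most of them, and sarcomeric genes had a large number of family reads. The lists below were chosen with earlier results of these data known, and their shares are set beside the family share over all genes with a peak, 2.79% and 3.27%. Over 17 glycolysis and glycogen genes the family held 6.55% and 8.12% of the reads of all miRNAs, with family peaks at 12 and 15 of them. Aldoa held 147 reads in each library, of 294 and 362 for the list. Without Aldoa, an alternative added after seeing the data, the share was 4.08% (3.46 to 4.78%) and 5.89% (5.15 to 6.70%). Pygm, the muscle glycogen phosphorylase gene, had 60.0 and 83.3, Ldha, a lactate dehydrogenase gene, 32.8 and 52.9, and Eno3, the muscle enolase gene, 14.3 and 20.8. Without a family peak in either library were 2 of the 17. Shares differed widely within the list. Pgam2 had 0 family reads of 474 and 1 of 667, and Tpi1 had 0.701 of 352 and 0.405 of 346. The median share of the list genes with at least 30 reads in each library was 2.49% and 4.28%, beside 1.04% and 1.57% over all such genes. A median above that over all genes was not particular to this list. It was 2.61% and 4.001% for thin filament and Z-disc genes and 3.21% and 2.85% for mitochondrial mRNAs. Some lists lay below it in both libraries, such as extracellular matrix genes at 0.664% and 0.689%.

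Sarcomere genes carried many family peaks. Their summed share was below that over all genes for thick filament and titin genes and above it for thin filament and Z-disc genes. The median share of genes with at least 30 reads in each library was 2.25% and 2.99% in the former list. In the latter it was 2.61% and 4.001%, and both lists lay above the 1.04% and 1.57% over all such genes. Over 17 thick filament and titin genes the summed share was 2.17% and 2.67%, with 828 and 1331 family reads and peaks at 17 and 16 genes. Ttn had 269 and 404 reads and Myh4 had 158 and 216. Over 19 thin filament and Z-disc genes the share was 3.77% and 4.54%, led by Acta1, by Des, the gene of the intermediate filament protein desmin, with 53.6 and 76.1, and by Tnni2, the fast troponin I gene, with 53.5 and 69.8. Calcium handling genes had a share of 2.91% and 4.91% over 14 genes, near that over all genes in the control and above it in the mimic. The ratio of its family reads was 2.02 (1.54 to 2.64), with Pvalb, which makes the calcium buffer parvalbumin, at 22.7 and 61.9 and Atp2a1 at 17.96 and 41.4. At Pvalb the family ratio was 2.72 (1.65 to 4.56) where all miRNAs had 1.33. Over 6 creatine kinase and adenylate genes the share was 1.97% and 2.90%, most of it at Ckm, the muscle creatine kinase gene, with 31.9 and 62.4.

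Protein synthesis factors had a share of 4.76% and 4.49% over 13 genes, most of it at Eef1a2, which held 37.6 of 46.6 and 34.2 of 43.8 family reads of the list. Eef2, the gene of translocation factor eEF2, had 4.46 and 2.83. Extracellular matrix genes were low, with 0.797% and 0.894% over 21 genes, led by the fibrillar collagen genes Col1a1 with 32.3 and 28.8 and Col3a1 with 11.6 and 11.1. Fatty acid and carnitine genes, a field in which miR-378 is often placed, had 11.8 and 8.23 family reads over 14 genes, a share of 2.84% and 1.87%, which is near that over all genes in the control and below it in the mimic, with no peak of 3 or more reads in either library. Cpt1b, the carnitine palmitoyltransferase gene of muscle, had 2.60 and 1.74, and Cd36, a fatty acid transporter gene, had 0.602 and 2.92. Insulin and IGF-1 signalling genes had 13.4 and 19.5 reads over 23 genes, a share of 1.09% and 1.71%, again with no peak of 3 or more reads. Igf2, the gene of insulin-like growth factor 2, had 2.67 and 7.59.

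**Figure D5:**
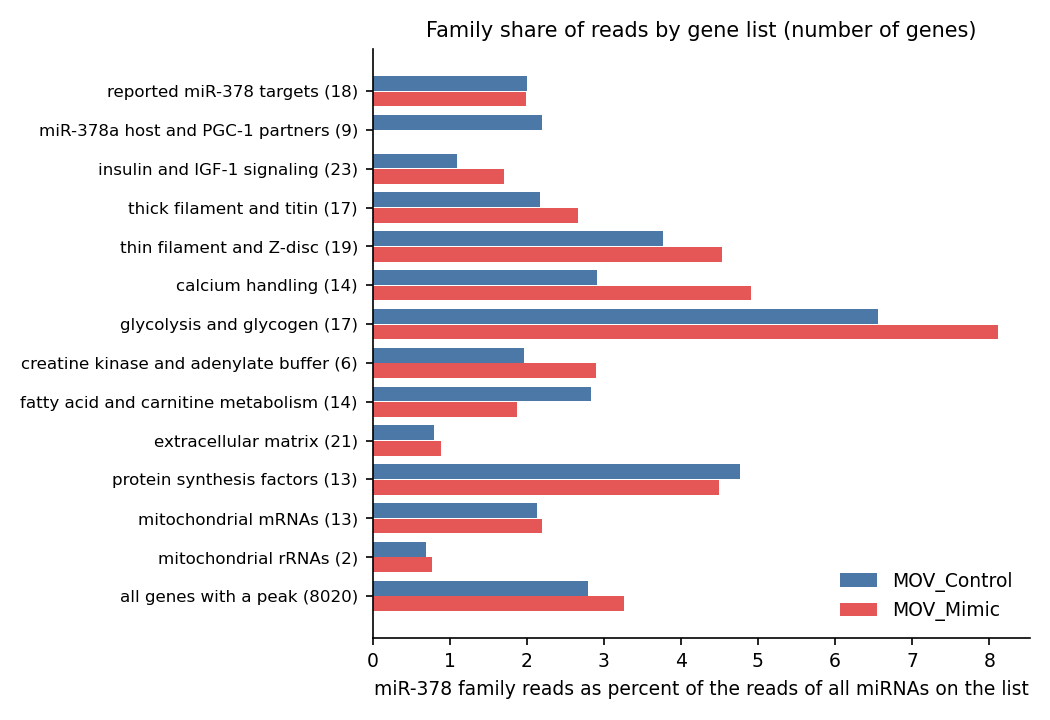
Share of miR-378 family reads among the reads of all miRNAs summed over each gene list other than the cell type markers, in MOV_Control and MOV_Mimic, with the number of genes listed in parentheses. Among these lists, glycolysis and glycogen genes stand highest at 6.55% and 8.12%, and extracellular matrix genes are low at 0.797% and 0.894%.

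Genes reported as miR-378 targets carried few family reads, although family peaks were listed at several of them. Of 18 such genes, 15 had a peak of some miRNA in each library, 6 had a family peak in each library and 3 had one in both. That is 6 of 15 genes with a peak, beside 23.5% and 25.4% of all genes with a peak. The list held 9.83 family reads and 10.2, 2.004% and 1.995% of its reads. Casp9, an initiator caspase gene, had 4.79 and 1.96 family reads, and no other miRNA was listed there. Vim, the vimentin gene, had 2.13 of 221 reads and 2.45 of 239, and Pdpk1, a kinase gene upstream of Akt, had 0.176 and 1.03. Grb2, an adaptor of growth factor receptors, had 0 family reads and 3.51, and Msc had 0 and 0.25. In the other direction Igf1r had 1 and 0, Hdac4, a histone deacetylase gene, 0.920 and 0, and Ksr1, a scaffold of the Ras pathway, 0.809 and 0. No family peak was listed in either library at Crat, Med13, Atg12, Pik3ca, Tob2, Tusc2 or Npnt, although Crat had 34.1 and 33.2 reads of other miRNAs and Med13 21.5 and 23.0. Sufu had no peak of any miRNA. A count of 0 allows up to 3 reads (a one-sided limit), so a low level of binding at these genes was not detectable at this depth. Ppargc1b, the host gene, had 13.8 and 31.1 reads of other miRNAs and none of the family.

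The mitochondrial chromosome held 313 family reads at 31 peaks and 396 at 35. That is 4.84% and 4.68% of the family reads, against 13.7% and 13.4% of the reads of all miRNAs, so the family was read less from mitochondrial RNA than miRNAs as a whole. The strongest places were in the large ribosomal RNA gene mt-Rnr2 at chrM:1590-1740, with 94.7 of 7817 reads and 108 of 8697. Next were ND1, a complex I subunit gene, at chrM:3467-3632 with 57.8 and 84.0, and ND4, another, at chrM:11455-11539 with 35.0 and 39.8. The family share was higher at COX1, a complex IV subunit gene, at chrM:5619-5684, with 14.2 reads (36.6% of the place) and 29.5 (58.5%). COX1 was picked out after its values were seen. The 37 mitochondrial genes had the same coordinates in both builds, so this chromosome could be searched under the peaks. The seeds used were those of miR-378b, miR-378c and miR-378d, since the sequence of miR-378a-3p was not at hand. On its 16299 nt, the match AGTCCAG was absent from both strands, AAGTCCA occurred once on the plus strand and AGGCCAG occurred at 2 places on the minus strand. None of the 31 control and 35 mimic family peaks held one, and with so few matches on the whole chromosome this count carries little information. With the 6-base match to bases 2 to 7, 2 and 1 peaks held one. The 7 and 2 mitochondrial peaks without a family name held none of either length. These letters alone do not tell which part of the miRNA paired there.

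Family peaks were shared with many other miRNAs, and they held more reads of all miRNAs than other peaks did, with medians of 6.19 against 3.13 in the control and 6.13 against 3.04 in the mimic. A median of 4 other names (quartiles 2 and 10) stood at a family peak in each library, while peaks without the family listed a median of 3. At family peaks of 3 or more reads the median was 11 and 12.5. Only 65 control and 83 mimic family peaks listed no other miRNA. MiR-133a-3p stood at 52.9% and 55.4% of family peaks, against 35.6% and 37.5% of all peaks, and miR-1a-3p at 42.5% and 45.2%, against 26.3% and 29.0%. The part of the higher read number in these shares was not tested. Of 1075 control and 1327 mimic family peaks with 10 or more reads of all miRNAs, the family held at least 50% of the reads at 38 and 43, which came to 1340 and 1785 family reads.

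Markers of skeletal muscle fibres were present throughout, and all 12 had peaks and family peaks in both libraries. They held 956 and 1533 family reads, a summed share of 2.37% and 2.92% that lies below the summed share over all genes. Their median share was 2.58% and 3.19%, above the median of 1.04% and 1.57% over 836 genes with at least 30 reads in each library. Fibroblast markers had family peaks at 6 and 5 of 8 genes with 56.8 and 56.6 reads, a share of 1.12% and 1.17%. Immune markers had 2.03 and 1.61 reads over 8 genes (2.20% and 1.105%), satellite cell markers 4.114 and 0.988 over 5 (21.6% and 5.50%, of 19.0 and 17.97 reads), and endothelial and erythroid markers none. The reads of all miRNAs at the fibre markers were 40382 and 52464, a difference that moved with the family reads there, and its part in them was not tested.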

How the data were processed

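The deposited files, 1 per library, list peaks of chimeric reads by position, strand, miRNA name and a fractional number of reads, which the authors' pipeline gave and which was read here as an estimated count. The submitters' processing notes name UMI-tools 1.1.1, cutadapt 3.2, STAR 2.7.7a, Bowtie 1.2.3, HOMER 4.11 and mm10. The study's methods name mm9, trimming, a filter on repetitive elements, removal of PCR duplicates and peak calling with CLIPPER. The peaks are on mm10: 99.0% fell in a GRCm38 gene in each library and about 35.6% in an mm9 gene in the control. How reads were divided among names and places was not given in the sources used here. Of 49993 RefSeq spans, 13559 had no strand, and 2.67% and 3.01% of family peaks were assigned to such genes. Total reads were 232408 and 259207.

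With 1 library per group no test was run. Shares carry exact Clopper-Pearson intervals, reads exact Poisson intervals, ratios exact conditional binomial intervals of reads rounded to whole numbers, and medians order-statistic intervals, all at 95% and covering counting error only. Places were paired between libraries where each was the other's largest overlap. Named genes were those of the 8 strongest places per library, the 3 strongest mitochondrial places, the 5 largest rises and falls (10 reads in the higher library, 3 in the other), the reported targets and host gene, the 2 strongest genes per list and the 5 highest family shares per library. Others were named after their values were seen. Some genes of the reported target list are counted but not reported here by name. The members and lists were chosen with earlier results of these data known. The steps were tested on simulated data. Python 3.11.15, pandas 2.3.3, numpy 2.4.6 and scipy 1.17.1 were used. Input libraries were not analysed here.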

Additional observations from a re-analysis of the deposited data

How the results depend on the processing

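Of 73 recomputed values, 45 stayed within the main interval or within 1.5 times the main count and 28 moved. A change of direction was looked for only in the ratio of family reads and in the median change at shared places, and none was found. The ratio of family reads ran from 1.17 to 1.34 over 9 settings, with 1.17 after division by library totals, where the median log2 ratio at shared places fell from 0.31 to 0.15. Without Rn7sk, without the 10 strongest places of each library and without Myh1, Myh2 and Myh4, all chosen after seeing the data, it was 1.29, 1.33 and 1.28. The share of peaks depends most on the unit. It was 6.82% and 8.15% (control and mimic) with at least 1 read of a name, 4.12% and 5.07% with at least 3, 11.4% and 13.3% for mmu-miR-378a-3p alone, 3.88% and 4.60% of the peaks of single miRNAs, and 2.78% and 3.26% of reads. It was higher in the mimic in each of these settings. Overlap was 46.8% with at least 1 read of a name, 68.1% with at least 3, 34.97% with 50% reciprocal overlap and 34.5% counted from the mimic. Target genes were 780 and 885 with at least 1 read of a name, 162 and 195 with at least 3, and 481 and 621 with at least 2 peaks. Places at least 2-fold lower in the mimic were 5 with at least 3 reads of a name and 5 for mmu-miR-378a-3p alone. The median share of a gene was 0.650% and 1.04% for mmu-miR-378a-3p alone. No paired analysis was possible because only 1 library stood for each condition. Under 50% of the family peaks of under 3 reads overlapped one in the other library, so values at single peaks of that size are listed only as values. The share of glycolysis and glycogen genes without Aldoa was 4.08% and 5.89%.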
